A study of Homo sapiens with 4 samples.

Results

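The genes described here encode subunits of chromatin remodelling and Polycomb complexes, 46 of the 19970 protein-coding genes that GENCODE release 44 places on chromosomes 1 to 22 and X. They were taken as a list of named genes by complex, and the rule sets no threshold on peaks: 16 genes of BAF and its variants, 12 of NuRD and the CHD family, 2 of ISWI, the ATPase gene INO80, 5 of PRC2 and 10 of PRC1. ZNF217, a zinc finger protein that acts with corepressors, was mapped by CUT&Tag, an assay in which a transposase tethered by an antibody tags nearby DNA. The libraries were from untreated MV4-11 cells and untreated U937 cells, both established human myeloid leukemia lines. MV4-11 carries a KMT2A fusion and U937 a PICALM fusion. Each line had 1 ZNF217 library, so a difference between the lines has no replicate check and no p-value was calculated. The IgG library of each line was not analysed here, and depth is unknown, since the lists give peak positions (hg38) with no height or read count.

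Remodelling complexes use an ATPase of the SNF2 family to slide, evict or exchange nucleosomes. BAF mostly opens chromatin, NuRD couples remodelling to histone deacetylation, ISWI spaces nucleosomes, and INO80 moves nucleosomes in transcription and DNA repair. Of the Polycomb complexes, PRC2 methylates histone H3 at lysine 27 and PRC1 ubiquitinates histone H2A, and both keep developmental genes silent. Genes of these complexes are recurrently mutated or rearranged in blood cancers.

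The stretches that lay under a peak in both lines show what the occupied promoters of these genes look like. For each complex the member with the longest common stretch is shown, with 200 bases that hold no UTR and lie as near the centre of that stretch as possible, on the plus strand of hg38. Capitals mark every match, on either strand, to the words searched, which are spelled out with the motif counts.
SMARCD2: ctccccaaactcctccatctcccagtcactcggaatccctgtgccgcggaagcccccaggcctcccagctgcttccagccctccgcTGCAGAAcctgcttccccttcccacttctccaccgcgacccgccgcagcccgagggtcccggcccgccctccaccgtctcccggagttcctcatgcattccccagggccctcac
CHD1: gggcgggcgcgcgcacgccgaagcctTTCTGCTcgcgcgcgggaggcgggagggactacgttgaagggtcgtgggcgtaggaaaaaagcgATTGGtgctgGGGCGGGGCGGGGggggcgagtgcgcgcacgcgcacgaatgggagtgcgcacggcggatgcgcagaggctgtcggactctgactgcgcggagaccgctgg
SMARCA5: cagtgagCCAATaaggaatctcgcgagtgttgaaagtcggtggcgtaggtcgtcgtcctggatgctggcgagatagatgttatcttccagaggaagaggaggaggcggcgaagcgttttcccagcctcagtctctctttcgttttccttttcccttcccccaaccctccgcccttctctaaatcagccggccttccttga
INO80: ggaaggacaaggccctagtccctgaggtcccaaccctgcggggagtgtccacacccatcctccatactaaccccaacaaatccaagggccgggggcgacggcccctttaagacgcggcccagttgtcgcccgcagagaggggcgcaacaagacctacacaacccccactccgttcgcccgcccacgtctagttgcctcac
EZH2: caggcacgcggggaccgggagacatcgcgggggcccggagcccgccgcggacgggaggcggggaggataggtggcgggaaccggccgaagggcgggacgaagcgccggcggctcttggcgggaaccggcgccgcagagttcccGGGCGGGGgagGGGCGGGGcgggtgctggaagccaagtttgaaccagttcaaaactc
PCGF1: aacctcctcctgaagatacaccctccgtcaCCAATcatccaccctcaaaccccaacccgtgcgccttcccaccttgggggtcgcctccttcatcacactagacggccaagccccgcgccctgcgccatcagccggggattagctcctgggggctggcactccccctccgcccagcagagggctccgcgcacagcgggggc
The SMARCD2 bases (chr17:63842181-63842380, from 305 to 504 bp downstream of the canonical TSS) lay in an intron and held 1 ZNF217 word. The CHD1 bases (chr5:98929008-98929207) ran from -200 to -1 bp of its canonical TSS and held a ZNF217 word, an NFY word and overlapping SP/KLF words. The SMARCA5 bases (chr4:143513441-143513640) lay upstream of the gene, with 169 of them in an exon of SMARCA5-AS1, and held 1 NFY word. The INO80 bases (chr15:41115773-41115972, intronic) held none of the words. The EZH2 bases (chr7:148884591-148884790) were intergenic, from -499 to -300 bp of the canonical TSS, and held SP/KLF words. The PCGF1 bases (chr2:74507139-74507338, exonic, of which 9 are coding) held 1 NFY word. GC content of the 6 windows ran from 54.5% in SMARCA5 to 74.5% in EZH2.

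The 4 members without a promoter peak in either line are shown for contrast, by the 250 bases before the RefSeq start (GRCh38.p14, each on the strand of its gene) nearest the canonical TSS.
BRD7: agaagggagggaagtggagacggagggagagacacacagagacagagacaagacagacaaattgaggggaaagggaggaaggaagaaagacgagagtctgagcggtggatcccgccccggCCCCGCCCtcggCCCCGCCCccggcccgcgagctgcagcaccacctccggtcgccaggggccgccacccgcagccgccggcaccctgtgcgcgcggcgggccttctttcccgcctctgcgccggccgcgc
MTA3: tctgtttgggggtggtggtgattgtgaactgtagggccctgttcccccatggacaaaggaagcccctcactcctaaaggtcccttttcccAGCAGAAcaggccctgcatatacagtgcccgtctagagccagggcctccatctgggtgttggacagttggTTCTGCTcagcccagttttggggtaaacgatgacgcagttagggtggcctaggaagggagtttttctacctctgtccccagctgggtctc
RING1: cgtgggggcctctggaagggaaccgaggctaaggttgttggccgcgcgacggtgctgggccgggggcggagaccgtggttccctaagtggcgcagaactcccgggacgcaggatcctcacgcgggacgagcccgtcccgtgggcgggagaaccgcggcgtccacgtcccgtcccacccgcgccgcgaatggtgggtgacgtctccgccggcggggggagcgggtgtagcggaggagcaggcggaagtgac
PHC1: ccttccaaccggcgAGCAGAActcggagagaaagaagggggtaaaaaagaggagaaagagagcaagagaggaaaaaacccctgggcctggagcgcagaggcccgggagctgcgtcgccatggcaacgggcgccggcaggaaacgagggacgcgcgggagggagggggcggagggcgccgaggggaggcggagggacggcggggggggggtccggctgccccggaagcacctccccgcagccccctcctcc
The bases of BRD7 (chr16:50368989-50369238, minus strand) and RING1 (chr6:33208250-33208499, plus strand) lay upstream of the gene, and the RING1 bases overlapped an exon of ENSG00000288751. Those of PHC1 (chr12:8914259-8914508, plus strand) and MTA3 (chr2:42567795-42568044, plus strand) lay in introns of longer transcripts of the same gene, and the MTA3 start is 587 bp from its canonical TSS. Their GC content was 70.8% for BRD7, 72.8% for RING1, 70.4% for PHC1 and 56.0% for MTA3, so GC-rich promoters were found among occupied and unoccupied members. ZNF217 words, which were in 2 of the 6 occupied windows, were also in the unoccupied MTA3 and PHC1 promoters.

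ZNF217 lay at the promoters of most of these genes in both lines. A promoter peak, meaning a peak within 1 kb of any annotated TSS, was found for 41 of the 46 members in MV4-11 (89.1%, 95% interval 76.4 to 96.4) and for 39 in U937 (84.8%, 71.1 to 93.7). All protein-coding genes had one in 59.0% of cases in MV4-11 and 50.5% in U937. In both lines together 38 members were occupied (82.6%, 68.6 to 92.2), against 47.4% of all genes. SMARCD3, CHD7 and CBX7 were occupied in MV4-11 only (6.52%, 1.37 to 17.9), against 11.6% of all genes, and PCGF5 in U937 only (2.17%, 0.055 to 11.5), against 3.1%. Both intervals held the share of all genes. The intervals are exact (Clopper-Pearson) and cover counting error only. The members carry more annotated starts than other genes, with a median of 13 against 5, and each start adds a window. With the canonical TSS alone, 41 members had a promoter peak in MV4-11 (89.1%), against 54.7% of all genes. In U937 it was 38 (82.6%) against 46.5%, and in both lines 37 (80.4%) against 43.8%. The promoters of the members are also richer in GC, with a median of 60.5% against 56.0% in the 2 kb around the canonical TSS. With all genes weighted to the members' classes of GC content and TSS number, the share of all genes was 77.7% in MV4-11, 67.3% in U937 and 64.4% in both lines. The weighted share for MV4-11 lies inside the interval of the members, and those for U937 and for both lines lie below it.

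**Figure D1:**
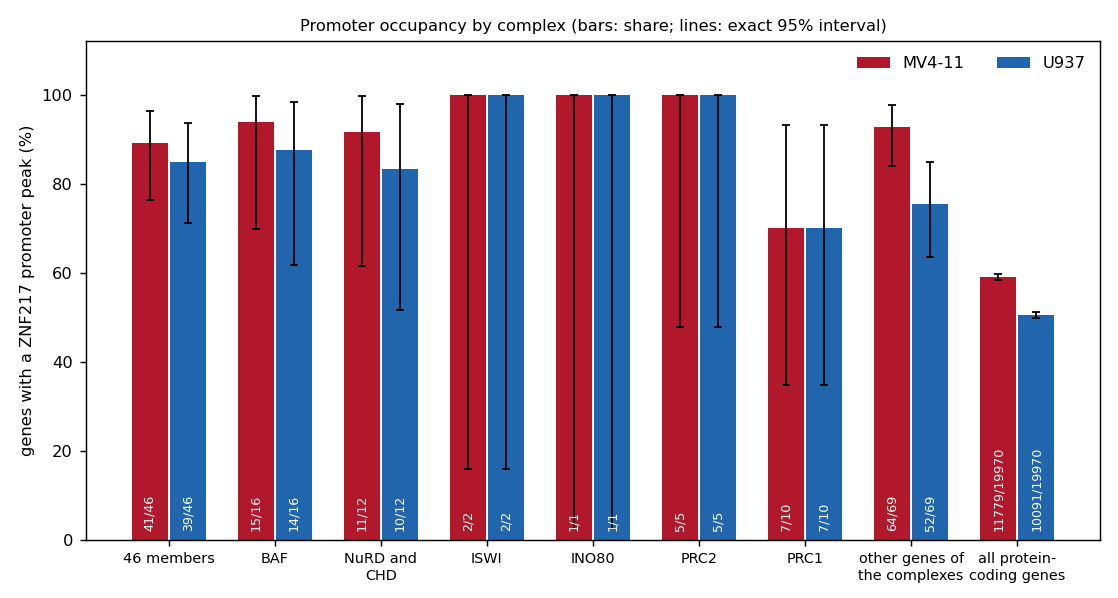
Share of genes with a ZNF217 promoter peak (%, vertical axis) in MV4-11 (red) and U937 (blue), for the 46 members, each complex, the 69 other genes of the complexes and all protein-coding genes. Bars give the share, lines the exact 95% interval and white figures the counts. PRC1 is lowest of the complexes with 7 of 10 in each line, and its interval of 34.8 to 93.3% overlaps those of all other complexes.

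The BAF ATPase genes were occupied in both lines but with different extents. SMARCA2, which encodes BRM, had 2 peaks of 696 and 1860 bp in MV4-11, and in U937 a single peak of 3416 bp covered the same sequence and the canonical TSS, the widest of all members in that line. SMARCA4, which encodes the alternative ATPase BRG1, went the other way, with a promoter peak of 1515 bp in MV4-11 against 617 bp in U937. Relative to the canonical TSS the SMARCA4 peak ran from -968 to 547 bp in MV4-11 and from -924 to -307 bp in U937, so only the MV4-11 peak covered the start.

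Of the BAF core subunit genes, SMARCC1, which encodes the scaffold BAF155, had a peak of 1184 bp in MV4-11 against 390 bp in U937, the narrowest of the members in that line. Its paralog SMARCC2, for BAF170, had 2266 bp in MV4-11 against 1905 bp in U937. The core gene SMARCB1, lost in rhabdoid tumors, had narrow peaks of 557 bp in MV4-11 against 678 bp in U937, which began 74 bp downstream of the canonical TSS in MV4-11 and 76 bp downstream of it in U937. SMARCE1, for BAF57, differed little between the lines, with 985 bp in MV4-11 against 1044 bp in U937.

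The 3 SMARCD paralogs, which encode the alternative BAF60 subunits, differed from each other. SMARCD2, needed for granulocyte maturation, had a peak of 3100 bp in MV4-11 against 2704 bp in U937, and the U937 peak (chr17:63841060-63843764) lay wholly inside that of MV4-11. SMARCD1 had 641 bp in MV4-11 against 561 bp in U937. SMARCD3, known in mouse for a role in heart development, had 4 promoter peaks of 293 to 1015 bp and 1 gene body peak in MV4-11, and none of either kind in U937, where the nearest peak was 5.8 kb from any of its TSSs, at the CHPF2 promoter. So the same subunit position held a gene with wide peaks in both lines and a gene with peaks in MV4-11 only.

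ARID1A and ARID1B, for the large DNA-binding subunits of canonical BAF, had several promoter peaks in each line. ARID1A had 3 in MV4-11, the widest 2306 bp, and 2 in U937, the widest 3168 bp, and every one overlapped a peak of the other line. ARID1B had 5 in MV4-11 and 4 in U937, all of them shared, at the main start and at internal starts 51.0 and 244.4 kb downstream of the canonical TSS. These were the highest numbers of promoter peaks of a BAF member in each line.

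Among genes of the PBAF and noncanonical variants, ARID2 had 1512 bp in MV4-11 against 1582 bp in U937. BRD9 had 2254 and 2131 bp in these lines. In MV4-11 only, ARID2 had a further promoter peak of 606 bp, and BRD9 had further ones of 476 and 871 bp. PBRM1, for the PBAF subunit polybromo, had 1013 bp in MV4-11 against 768 bp in U937. SS18, fused to SSX genes in synovial sarcoma, had 740 bp in MV4-11 against 1401 bp in U937. BRD7, a bromodomain subunit of PBAF, had no promoter or gene body peak in either line. Its nearest peak was 15.6 kb away in MV4-11, at the ADCY7 promoter, and 9.6 kb away in U937. Over all unoccupied genes the median distance was 48.5 kb in MV4-11 and 49.3 kb in U937.

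The NuRD ATPase genes held the largest difference in width. CHD3 had a peak of 3678 bp in MV4-11 (chr17:7885095-7888773), the widest of all members in that line, and the same stretch held 2 narrower peaks in U937, the wider one 999 bp, a ratio of the widest peaks of 3.68. The MV4-11 peak ended at -16 bp of the canonical TSS, and a second peak of 541 bp downstream of it was found in MV4-11 only. CHD4 had 3 promoter peaks in each line, all shared. The one across its canonical TSS was 2255 bp in MV4-11 against 460 bp in U937. The farthest upstream was 2134 bp in MV4-11 against 1256 bp in U937, and the downstream one 1167 against 620 bp.

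The NuRD scaffold genes of the MTA family differed from each other. MTA1 had a peak of 1724 bp downstream of the start in MV4-11 only, and a shared upstream peak of 1199 bp in MV4-11 against 586 bp in U937. MTA2 had 2053 bp in MV4-11 against 1153 bp in U937. MTA3 had no promoter peak in either line, yet it had 4 gene body peaks in MV4-11 and 3 in U937, 2 of each shared, all between 80356 and 186185 bp downstream of the canonical TSS. With a promoter window of 3 kb in place of 1 kb MTA3 counted as occupied in both lines, since a peak lay 2.3 kb from an internal TSS in MV4-11 and 1.9 kb in U937.

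MBD3, the methyl-CpG-binding-domain subunit that gives NuRD its identity, had 5 promoter peaks in MV4-11, up to 1861 bp, and 1 of 1205 bp in U937. The 1861 bp peak overlapped a U937 peak of 1035 bp that fell outside the promoter windows and so counted as a gene body peak. GATAD2A, which links MBD3 to CHD4, had a peak of 2456 bp across the canonical TSS in MV4-11 and of 1468 bp in U937. Its paralog GATAD2B was wider in U937, with 868 bp in MV4-11 against 1901 bp in U937, the lowest ratio of all members at 0.46. That U937 peak overlapped 2 separate peaks of MV4-11.

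The CHD genes outside NuRD were occupied at their main starts, apart from CHD7 in U937. CHD1, which reads methylated H3 lysine 4, had nearly equal peaks of 1601 bp in MV4-11 against 1678 bp in U937. CHD2 had 2 narrow shared peaks in each line, up to 661 bp in MV4-11 against 623 bp in U937. CHD8 had 989 bp in MV4-11 against 756 bp in U937, and a second shared peak near an internal start. CHD7, the gene mutated in CHARGE syndrome, had a peak of 818 bp across its canonical TSS in MV4-11 (chr8:60678421-60679239) and none in U937, where the nearest peak was 46.1 kb away.

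The ISWI genes and INO80 were occupied in both lines. SMARCA5, for the ISWI ATPase SNF2H, had almost the same interval in each, 881 bp in MV4-11 against 913 bp in U937, from -602 to 279 bp of the canonical TSS in MV4-11 and from -611 to 302 bp of it in U937. BPTF, for the largest NURF subunit, had 583 bp in MV4-11 against 868 bp in U937, which overlapped by 237 bp, the shortest common stretch of the members. The U937 peak of BPTF began 39 bp downstream of the canonical TSS that the MV4-11 peak covered. INO80 had 1543 bp in MV4-11 against 1118 bp in U937.

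All 5 PRC2 genes had a promoter peak in both lines (interval 47.8 to 100%), against 47.4% of all genes. Each of their 6 promoter peaks per line was shared (54.1 to 100%). Over all genes 62.6% of promoter peaks were shared in MV4-11 and 87.0% in U937, both inside that interval. EZH2, for the main H3K27 methyltransferase, had 2452 bp in MV4-11 against 1556 bp in U937, and the U937 peak lay inside the MV4-11 one. EZH1, for the alternative methyltransferase, had 1072 bp in MV4-11 against 874 bp in U937. EED, which binds the H3K27 mark, had 1420 bp in MV4-11 against 1112 bp in U937. SUZ12, the scaffold, was wider in U937, with 1113 bp in MV4-11 against 1470 bp in U937. JARID2, a subunit that helps PRC2 onto chromatin, had a pair of promoter peaks in each line, 1352 and 1393 bp in MV4-11 against 1268 and 1306 bp in U937, and the upstream one ended at 8 bp of the canonical TSS in MV4-11 and at -72 bp in U937. The 5 genes thus kept the same arrangement of promoter peaks in the lines and varied in width by a ratio of 0.757 for SUZ12 to 1.576 for EZH2.

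PRC1 genes varied in their occupancy. Of the E3 ligase genes, RNF2 (RING1B) had 581 bp in MV4-11 against 1203 bp in U937. Its paralog RING1 had no promoter or gene body peak in either line, with the nearest peak 7.6 kb away in MV4-11 and 7.5 kb in U937, at the promoters of RXRB and SLC39A7. RING1 lies in the MHC region, and the 101 bases around its canonical TSS recur exactly on 5 alternate chromosome 6 sequences of hg38, none with a peak within 1 kb in either line. Whether reads were divided among these copies was not tested. SMARCB1 was the only other member with such a copy, on 1 alternate chromosome 22 sequence, and it had a peak there in both lines.

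The PCGF genes define the PRC1 variants. BMI1 (PCGF4), needed for self-renewal of blood stem cells, had 740 bp in MV4-11 against 1371 bp in U937, and 2 further peaks in U937 only. PCGF1, of the variant with BCOR, had 1452 bp at its start in MV4-11, wholly inside the U937 peak of 2052 bp. A second MV4-11 peak of 2157 bp lay beyond the gene end. It overlapped a U937 peak of 1168 bp that fell outside the promoter windows of PCGF1. PCGF5 was the single member with a promoter peak in U937 only. In MV4-11 its nearest peak was 304.5 kb away, at the HTR7 promoter, a distance that 1023 of all genes (5.12%) reached or passed in that line. In U937 it had a peak of 475 bp, from 121 to 596 bp downstream of the canonical TSS (chr10:91220784-91221259).

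Of the chromobox genes that read H3K27 methylation, CBX2 and CBX8 were occupied in both lines and CBX7 in MV4-11 only. CBX2 had 2177 bp in MV4-11, and in U937 about the same stretch held peaks of 514 and 785 bp on either side of the start. CBX8 had 1112 bp in MV4-11 against 1067 bp in U937 at the same place. CBX7 had 467 bp, the narrowest of the members in MV4-11, and a gene body peak of 2064 bp, and no peak in U937, where the nearest was 21.8 kb away. One MV4-11 peak of 1822 bp (chr17:79803384-79805206) fell just outside the outermost CBX8 start window, while its U937 counterpart of 1945 bp (chr17:79802668-79804613) touched that window and so counted as the widest CBX8 promoter peak in U937.

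The polyhomeotic genes, whose products polymerize PRC1, differed as well. PHC1 had no promoter or gene body peak in either line, with the nearest 15.2 kb away in MV4-11 and 15.5 kb in U937, at the promoters of M6PR and KLRG1. PHC2 had a peak of 803 bp across its canonical TSS in MV4-11 only. In both lines it had a peak at an internal start 81.1 kb downstream in MV4-11 (1332 bp) and 80.9 kb downstream in U937 (708 bp), so its count as occupied in U937 rests on that start alone.

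Over the members occupied in each line, the widest promoter peak had a median of 1393 bp in MV4-11 (467 to 3678) and of 1203 bp in U937 (390 to 3416). Over all occupied genes the medians were 1084 bp in MV4-11 against 979 bp in U937. Of the 38 members occupied in both, 23 had the wider peak in MV4-11 and 15 in U937. The median ratio of MV4-11 over U937 was 1.10, against 1.14 over all genes occupied in both. The widest peak was picked in each line separately, so the peaks of a pair can lie at different sites. For PCGF1 the pair was the 2157 bp peak beyond the gene end in MV4-11 and the 2052 bp peak at the start in U937. By complex the median in MV4-11 was 1512 bp for BAF, 1724 bp for NuRD and CHD, 732 bp for ISWI, 1393 bp for PRC2 and 1112 bp for PRC1. In U937 it was 1491.5 bp for BAF, 1179 bp for NuRD and CHD, 890.5 bp for ISWI, 1306 bp for PRC2 and 1203 bp for PRC1. The ranges within BAF, NuRD and CHD, and PRC1 overlapped in both lines.

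**Figure D2:**
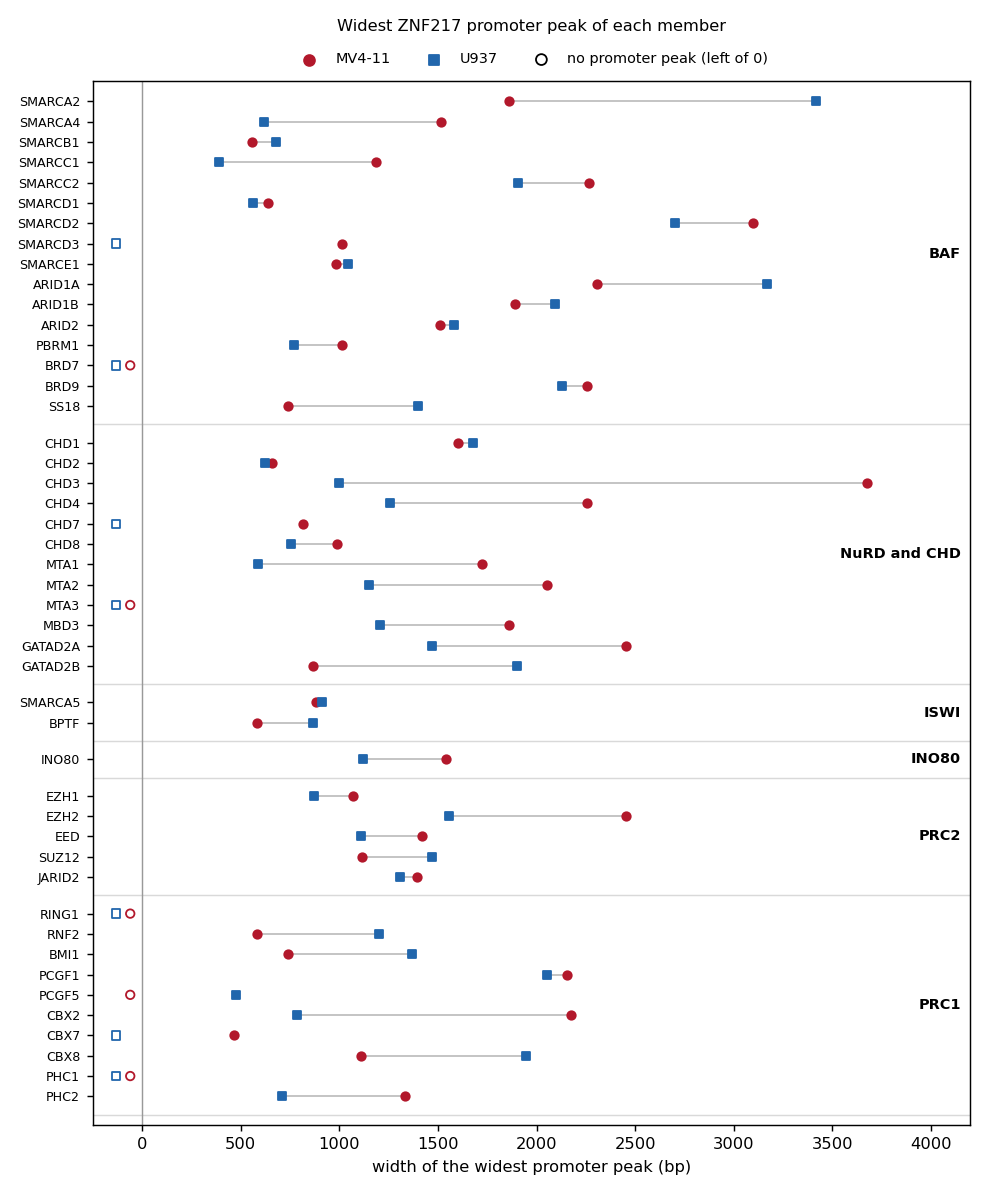
Width of the widest ZNF217 promoter peak (bp, horizontal axis) of each of the 46 members by complex, in MV4-11 (red circles) and U937 (blue squares), joined by a line where both exist. The widest peak was picked in each line separately, so joined symbols can stand for different sites. Open symbols left of 0 mark members without a promoter peak, and the longest lines are those of CHD3 (3678 bp in MV4-11, 999 bp in U937) and SMARCA2 (1860 and 3416 bp in these lines).

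The peaks of the lines mostly coincided at these promoters. In MV4-11, 54 of the 76 promoter peaks of members overlapped a U937 peak by at least 1 bp (71.1%, 59.5 to 80.9), and in U937, 51 of 57 overlapped an MV4-11 peak (89.5%, 78.5 to 96.0). Over all genes these shares were 62.6% in MV4-11 and 87.0% in U937, and the intervals of the members held both values. Unshared promoter peaks were narrower, with a median of 598 bp against 1271 bp for shared ones in MV4-11, and of 464 bp against 1112 bp in U937. Unshared ones in MV4-11 included peaks at SMARCA4 (590 bp), SMARCD1 (367 bp), SMARCD2 (723 bp) and MTA2 (543 bp). Further ones lay at CHD8 (646 bp), GATAD2A (348 bp) and GATAD2B (820 bp). Those in U937 included peaks at SMARCD2 (538 bp) and GATAD2A (453 and 386 bp). The stretch common to both lines had a median of 1031.5 bp over the 38 members (range 237 to 2704), against 845 bp over 9294 genes. It was the longest overlap at each gene, picked from more start windows in members, and no interval was calculated for it.

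For most members a peak covered the canonical start itself. The canonical TSS lay inside a peak for 37 of the 46 members in MV4-11 (80.4%) and for 29 in U937 (63.0%), and these 29 were covered in both. Over all genes it lay inside a peak in 48.9% of cases in MV4-11 and 38.9% in U937. The midpoint of the covering peak had a median position of -26 bp from the TSS in MV4-11 and of 137 bp in U937, where negative values are upstream. Over all genes these medians were -5 bp in MV4-11 and 6 bp in U937. It was downstream for 17 of 37 members in MV4-11 (45.9%), against 49.1% over all genes, and for 20 of 29 in U937 (69.0%), against 51.0%.

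**Figure D3:**
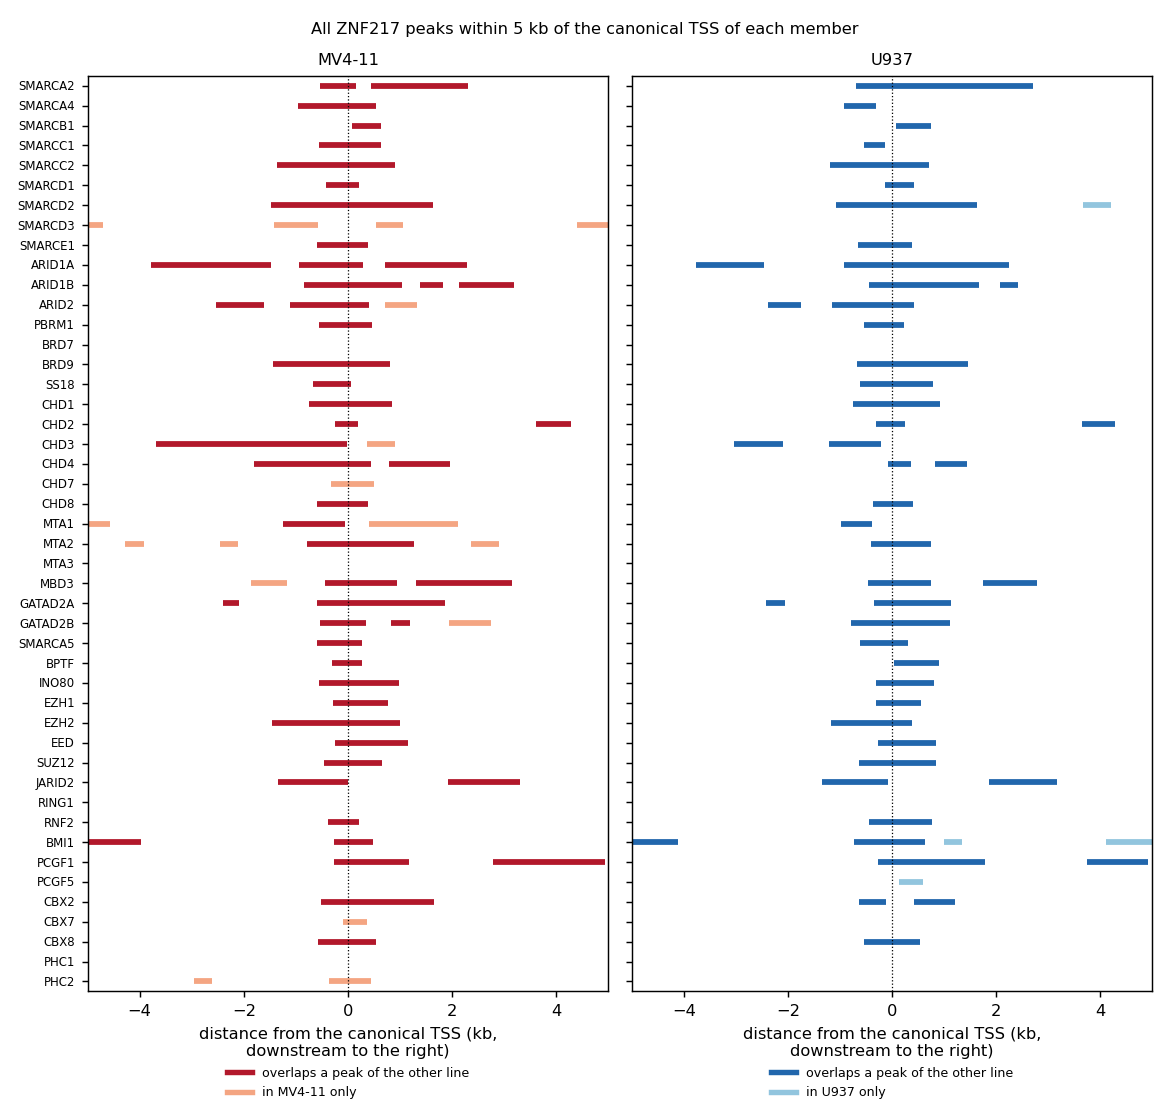
All ZNF217 peaks within 5 kb of the canonical TSS of each member, with the distance from the TSS in kb on the horizontal axis (downstream to the right), MV4-11 in the left panel and U937 in the right. Dark bars overlap a peak of the other line and pale bars do not, and SMARCD3, CHD7 and CBX7 have pale bars in MV4-11 and none at the start in U937, while BRD7, MTA3, RING1 and PHC1 have none at the start in either.

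Some promoter peaks belonged to a neighbouring gene as well. PBRM1 shares a divergent promoter with GNL3, a nucleolar GTPase gene whose canonical TSS is 119 bp away, and BRD9 with TRIP13, a mitotic checkpoint gene 83 bp away, and 1 peak covered each pair in both lines. The widest MV4-11 peak of CHD3 and the farther upstream one of its U937 peaks touched the promoter window of NAA38. The 2 CHD4 peaks nearest its canonical TSS in each line touched that of the gene ENSG00000285238. The MV4-11 peak beyond the end of PCGF1 touched that of LBX2. For these peaks of 5 members, occupancy of the member and of its neighbour cannot be told apart. Only protein-coding neighbours were counted. The bases shown for CHD1 and SMARCA5 also overlapped exons of the noncoding genes CHD1-DT (45 bases) and SMARCA5-AS1 (169 bases).

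Peaks within the gene body, outside every promoter window of the gene, were fewer and less shared. They were found for 19 members in MV4-11 (41.3%, 27.0 to 56.8), against 29.5% of all genes, and for 15 in U937 (32.6%, 19.5 to 48.0), against 19.1%. The order of the lines turned with lists of equal length, in which 11 members had 17 such peaks in MV4-11, against 15 members with 23 in U937. That setting dropped the narrowest MV4-11 peaks and left the U937 list whole. With peaks of at least 400 bp in both lists the order stayed, with 31 such peaks in MV4-11 against 14 in U937. The members are longer than other genes, with a median of 60.6 kb against 27.5 kb. Among genes over 100 kb, 10 of 16 members had such a peak in MV4-11 (62.5%) and 9 in U937 (56.2%), against 43.8% and 32.6% of all genes of that length in these lines. From 30 to 100 kb it was 7 of 17 members in MV4-11 (41.2%) and 5 in U937 (29.4%), against 35.7% and 24.9%. Under 30 kb the members were lower, with 2 of 13 in MV4-11 (15.4%) and 1 in U937 (7.69%), against 21.0% and 11.2%. Per 100 kb of gene there were 1.21 peaks in MV4-11 and 0.558 in U937 over the members, against 0.997 and 0.502 over all genes. By length this excess was found over 100 kb alone, with 1.26 in MV4-11 and 0.545 in U937 over the members, against 0.571 and 0.302 over all genes. From 30 to 100 kb the members had 0.909 in MV4-11 and 0.606 in U937, against 1.52 and 0.8, and under 30 kb they had 2.03 and 0.506, against 2.81 and 1.21. Of 50 gene body peaks in MV4-11, 10 were shared, and of 23 in U937, 12 were (52.2%). Over all genes 27.2% were shared in MV4-11 and 54.0% in U937, and the intervals of the members held both values. By their midpoints 44 of the 50 and 21 of the 23 were intronic, and none touched the promoter of another protein-coding gene.

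GATAD2A had the most in each line, 11 in MV4-11 and 4 in U937, of which 3 in each were shared. Of the 11 in MV4-11, 9 were under 500 bp wide. JARID2 followed in MV4-11 with 7, 317 to 778 bp wide and spread from 7903 to 175200 bp downstream of the start, and had none in U937. SMARCA4 had 5 in MV4-11 and 1 in U937, and a single pair overlapped, 654 bp in MV4-11 against 1412 bp in U937, in an intron 113.7 kb downstream of the start. MTA3 came next in MV4-11 with 4, and in U937 it followed GATAD2A with 3. MBD3 and PHC2 had 3 each in MV4-11 and 1 each in U937, and the U937 one of MBD3 overlapped an MV4-11 peak counted as a promoter peak. ARID1A had 2 in MV4-11 and 2 in U937, ARID1B had 1 and 2 in these lines, and GATAD2B had 2 in each. GATAD2A and JARID2, both over 100 kb long, together held 18 of the 50 MV4-11 peaks.

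**Figure D4:**
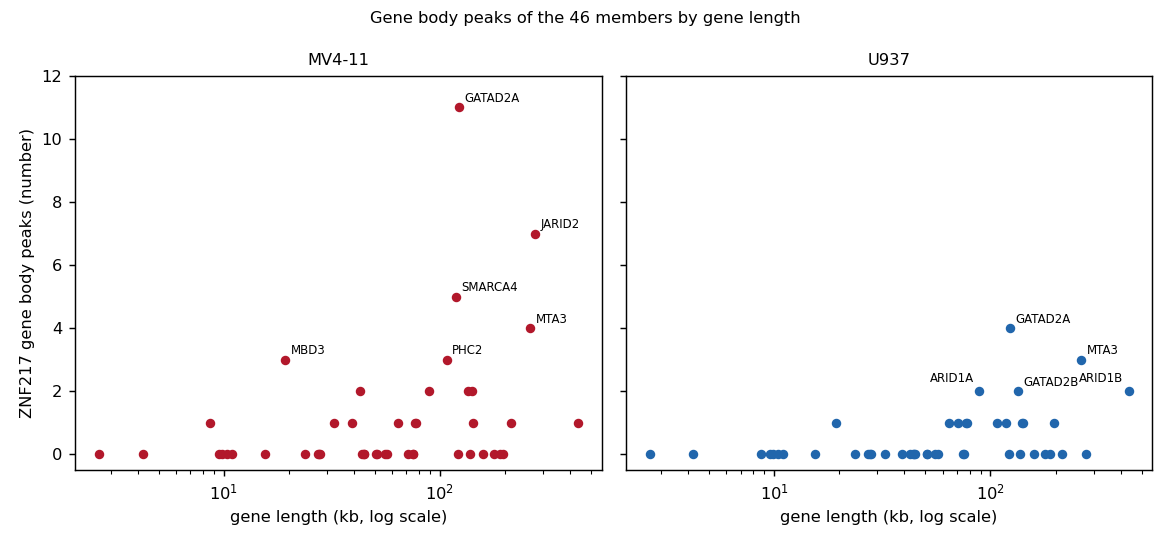
Number of ZNF217 gene body peaks (vertical axis) against gene length (kb, log scale) for the 46 members, MV4-11 in the left panel and U937 in the right. GATAD2A leads with 11 peaks in MV4-11 and 4 in U937, JARID2 has 7 in MV4-11 and none in U937, and several genes over 100 kb have none in either line.

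The sequence under the common stretches was read for 9 consensus words, on both strands of its central 200 bases. For SMARCD2, CHD1 and INO80 these are not the bases shown, which were moved off the centre by 132, 154 and 168 bp to leave out UTRs, so their words differ from those marked in capitals. The ZNF217 consensus, taken as AACAGAA or AGCAGAA or TACAGAA or TGCAGAA, was in 2 of 38 members (5.26%, 0.644 to 17.7), CBX8 and CHD1, against 6.76% of 9294 genes. The SP/KLF word GGGCGGGG was in 10 members (26.3%), against 22.3% of genes, and the NFY word CCAAT was in 9 (23.7%), against 20.5%. The ETS word CCGGAAGT was in none of the 38, which allows a share of up to 9.25%, and was in 4.97% of all genes. The RUNX word TGTGGTT was in 1 member, as were the CRE word TGACGTCA and the YY1 word AAGATGGCG, and the NRF1 word GCGCATGCG and the AP-1 word TGAGTCA were in none. No word of the set contains another. For each word the interval of the members held the share of all genes. In the RefSeq promoters (250 bases before the start and 50 from it on), matched for 39 of the 46 members, ZNF217 words were in 7 (17.9%, 7.54 to 33.5), against 14.1% of 15315 genes.

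A wider list of 69 other genes of the same complexes was described in the same way. A promoter peak was found for 64 of them in MV4-11 (92.8%, 83.9 to 97.6) and for 52 in U937 (75.4%, 63.5 to 84.9), and all 52 were also occupied in MV4-11. Of 18 other genes of INO80 and related complexes, 18 were occupied in MV4-11 and 17 in U937. The NuRD deacetylase genes HDAC1 and HDAC2 and the histone chaperone genes RBBP4 and RBBP7 were occupied in both lines. The 12 genes occupied in MV4-11 only (17.4%, 9.32 to 28.4, against 11.6% of all genes) included CBX6, with 2839 bp, and BCOR, a PRC1 subunit gene mutated in AML, with 4 promoter peaks up to 2886 bp and 15 gene body peaks in MV4-11 and none of either in U937. The 5 occupied in neither were ACTL6B, DPF3, SMARCA1, CECR2 and EZHIP, of which ACTL6B is a neuronal and EZHIP a germ cell gene.

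Across the whole lists there were 36356 peaks on chromosomes 1 to 22 and X in MV4-11 (median width 622 bp) and 21737 in U937 (689 bp), so the longer MV4-11 list stands beside every excess of MV4-11 peaks. With the MV4-11 list shortened to its 21737 widest peaks, 40 members (87.0%) had a promoter peak in MV4-11, against 52.0% of all genes. Of 8 myeloid marker genes, 7 in MV4-11 (87.5%, 47.3 to 99.7) and 5 in U937 (62.5%, 24.5 to 91.5) had a promoter peak. LYZ was without one in both. Over all genes the shares were 59.0% in MV4-11 and 50.5% in U937, inside these intervals. The count was 1 of 3 T cell marker genes in MV4-11 and 0 in U937, 2 of 3 B cell genes in MV4-11 and 1 in U937, 1 of 3 hepatocyte genes in MV4-11 and 0 in U937, and 0 of 3 erythroid and 0 of 3 epithelial genes in both. The intervals of these sets of 3 genes, 0 to 70.8% where none had a peak, also held the shares of all genes. A peak is not a measure of expression.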

How the data were processed

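ZNF217 CUT&Tag libraries of MV4-11 and U937, 1 per line, were used. Both lines' IgG samples were not used here. Per the submitters' processing notes and the study's methods, the authors aligned reads to hg38 with Bowtie2 2.4.4 and called peaks per library with MACS3 3.0. Whether IgG served as control, whether duplicates were removed and whether blacklisted regions were excluded is not given in the sources used here. The deposited values, of a unit other than counts or signal, are peak positions in bp. They were used unchanged, with an uncertainty of 1 bp, as no source used here says whether starts count from 0 or 1. Depth is unknown. The exact 95% intervals, given for some of the shares, cover counting error only, and not depth, peak calling or variation between libraries.

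Positions were compared with GENCODE 44 and with the hg38 sequence in Python 3.11.15 (pandas 2.3.3, NumPy 2.4.6, SciPy 1.17.1 for intervals, Matplotlib 3.10.9 for figures). A promoter peak lay within 1 kb of any TSS of the gene. A gene body peak overlapped the gene and none of its promoter windows. Width is end minus start. Sharing required an overlap of 1 bp or more with the other line's list. Overlap counting was tested on simulated intervals. RefSeq promoters came from GRCh38.p14, with the start nearest the canonical TSS for each gene.

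The members and the lists of other genes, markers and motifs were chosen with earlier results of these data known. Values were given in full for members without a promoter peak in both lines, the 3 widest and 3 narrowest promoter peaks per line, members occupied only at a noncanonical TSS or with a promoter peak shared with another gene, and the 5 members with most gene body peaks per line. The remaining members were described by their promoter peaks. Alternatives were promoter windows of 500 bp and 3 kb, 1 TSS per gene, peaks of at least 400 bp, merging of peaks under 500 bp apart, lists of equal length, and sharing by reciprocal 50% overlap or within 500 bp. The check for copies of promoters, the distance to the nearest peak and the removal of UTR bases from the printed sequences were added after the data were seen.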

Additional observations from a re-analysis of the deposited data

How the results depend on the processing

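Of 66 values recomputed over 10 alternatives, 57 stayed within the limits set for each kind of value and 9 moved. The number of members with a promoter peak ranged from 40 to 42 in MV4-11, from 38 to 40 in U937 and from 37 to 39 in both lines. Where it was also computed, the share of all genes ran from 52.0 to 62.0% in MV4-11. In U937 that share ran from 46.5 to 53.5%, and in both lines from 43.8 to 50.3%. With 1 TSS per gene the share of promoter peaks that overlapped a U937 peak was 83.7% in MV4-11. With reciprocal 50% overlap the shared part fell to 47.4% in MV4-11 and 61.4% in U937. Gene body counts depended most on the peaks admitted. With gene bodies taken away from 3 kb promoter windows, U937 had 15 gene body peaks. With peaks of at least 400 bp, MV4-11 had 31 gene body peaks and U937 had 14, in 9 members. With lists of equal length MV4-11 had 17 gene body peaks in 11 members, because its narrowest peaks were left out. No paired analysis was possible because each line had 1 library and the labels carry no replicate numbers.

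The peak lists give no height, score or depth, so an absent peak is one that was not called, and weak occupancy could not be told apart from none. A difference between the lines is a difference between 2 libraries.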
